A study of Mus musculus with 6 samples.

Results

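The 10 genes Nqo1, Hmox1, Gclc, Gclm, Txnrd1, Srxn1, Sod1, Sod2, Cat and Gpx3 code for enzymes that remove oxidants or repair what they damage, and they were read in right atria (RAs) of young mice with volume overload (VO). The genes were taken by symbol from a table of 54093 genes. Each symbol stood for a single row, and all 10 were among the 12627 genes tested. The animals were wild-type C57BL/6 mice, male or female, in both groups. A fistula between the abdominal aorta and the inferior vena cava (ACF) was made at P7 in the VO group, which sends arterial blood straight back to the RA, and the sham group had a sham operation on the same day. RA myocardium was taken at P21, and the RNA was sequenced in 3 sham and 3 VO libraries, named here sham 1 to VO 3. The labels do not say whether a library came from a single animal, so the p-values measure only the spread between these libraries.

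These enzymes form connected chains. Superoxide dismutases (Sod1 in the cytosol, Sod2 in mitochondria) turn superoxide into hydrogen peroxide, which catalase (Cat, in peroxisomes) and glutathione peroxidases (among them the secreted, selenium-containing Gpx3) turn into water. Glutathione is made through glutamate-cysteine ligase, whose catalytic subunit is Gclc and whose modifier subunit is Gclm. Thioredoxin reductase 1 (Txnrd1) and sulfiredoxin (Srxn1) keep thioredoxin and peroxiredoxins active, haem oxygenase 1 (Hmox1) breaks down haem, and Nqo1 reduces quinones. Many of them are classical targets of NRF2 (gene Nfe2l2), a transcription factor that KEAP1 marks for degradation until oxidants or electrophiles modify KEAP1. NRF2 then pairs with a small MAF protein and binds antioxidant response elements (AREs), while BACH1, which senses haem, occupies the same elements and represses Hmox1.

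RefSeq promoter windows of GRCm38.p6, from 250 bases before to 50 bases after the start site, were at hand for 8 of the 10 genes, with 3 windows for Txnrd1 and none for Hmox1 and Gclc. The ARE core TGACNNNGC was searched on both strands. It lay in 12.4% of 32851 windows of all genes and in a window of 4 of the 8 genes, which were Gclm, Txnrd1, Srxn1 and Sod1. The sister core TGAGNNNGC, in 17.6% of all windows, was found in Srxn1 alone of the 8 genes. Either core lay in 27.8% of all windows. The AP-1 motif TGANTCA, in 7.81% of all windows, was also found in Srxn1 alone, and a match of it overlaps the Srxn1 core printed here. These stretches are shown because they are the places in the windows where NRF2 and small MAF proteins could bind by sequence. Capitals mark the core. In Gclm, Txnrd1 and Sod1 the core reads on the opposite strand, so its reverse complement is what appears.
Gclm, chr3:122245408-122245446, + strand: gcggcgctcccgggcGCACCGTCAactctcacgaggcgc
Txnrd1, chr10:82859099-82859137, + strand: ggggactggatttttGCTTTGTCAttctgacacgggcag
Sod1, chr16:90220691-90220729, + strand: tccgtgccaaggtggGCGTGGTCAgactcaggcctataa
Srxn1, chr2:152105464-152105502, + strand: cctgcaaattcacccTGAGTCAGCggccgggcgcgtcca

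The core ended 125 bases before the start site in Gclm, 83 in Txnrd1, 47 in Sod1 and 36 in Srxn1. Srxn1 had another TGAGNNNGC match in front of its start site and a TGACNNNGC match behind it, which are not shown. No core was found in the windows of Nqo1, Sod2, Cat and Gpx3, which says only that these letters are absent there. The 250 bases before the start site of Cat are shown because Cat was the member with the smallest p-value between the groups. Capitals mark its 4 CCAAT boxes, counted on both strands, and CCAAT lay in 37.4% of all windows. The stretch held 62.0% G and C, against a median of 52.4% over the same 250 bases of all windows.
Cat, chr2:103485154-103485403, - strand: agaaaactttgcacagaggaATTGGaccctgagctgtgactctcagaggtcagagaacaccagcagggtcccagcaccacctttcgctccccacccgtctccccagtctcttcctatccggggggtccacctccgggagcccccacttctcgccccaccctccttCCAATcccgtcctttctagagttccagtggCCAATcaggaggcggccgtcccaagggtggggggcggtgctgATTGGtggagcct

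The values are FPKM, that is fragments divided by exon length and by a library size set by the authors. Fragments on genes came to 15963082 to 17237903 per library. Each difference is VO minus sham in log2(FPKM + 0.1), and its adjusted p comes from a two-sided limma fit of all 12627 genes with Benjamini-Hochberg adjustment. The smallest p that an exact permutation test can reach with 3 libraries a group is 0.1. Markers of the atrium summed to 12108 to 18161 FPKM in sham and 5603 to 11423 in VO, far above markers of the ventricle. The latter summed to 317, 132 and 246 FPKM in sham 1, 2 and 3 and to 96.4, 114 and 149 in VO 1, 2 and 3. Of these Myl2 was at 60.4 FPKM in sham 1, 56.0 in sham 3 and 20.6 in VO 3. In sham 2, VO 1 and VO 2 it was at 1.54 to 6.95 FPKM. Whether some libraries held ventricular tissue was not tested. Markers of cardiomyocytes summed to 10591 to 11326 FPKM in sham and 5471 to 8384 in VO. All 6 were lower on average, from -0.86 for Actc1, the most abundant of them, to -0.13 for Ryr2. The groups overlapped in Ryr2 and Myh6, and on the TPM scale 5 markers were lower and 1 higher. VO 1 and VO 3 stood apart in markers of other cells. In VO 1 the 10 macrophage markers summed to 947 FPKM against 273 to 380 in the other libraries, and the 6 neutrophil markers to 66.0 against 1.05 to 11.4. The 7 red cell markers summed to 8589 FPKM in VO 1 and 6975 in sham 1, against 696 to 2384 elsewhere. In VO 3 the 8 adipocyte markers summed to 808 FPKM against 39.0 to 55.0 elsewhere, and Ucp1, the defining gene of brown fat, was at 254 FPKM in VO 3 and listed at 0 in the other 5 libraries. In bulk RNA, fewer cells of a type and less RNA per cell cannot be told apart.

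Of the 10 genes, 4 were on average higher in VO and 6 lower, and none passed an adjusted p of 0.05 by limma, nor by voom on the recovered fragments, where 1 had an unadjusted p under 0.05. At an unadjusted p under 0.05, 1 gene, Cat, was higher, where 3.89% of all tested genes were, and 0 were lower, where 8.08% of all tested genes were. The adjusted threshold was passed by 0.00792% of all tested genes, which is 1 gene, and voom also gave 1. At the same threshold the paper reported far more genes by DESeq2 on counts. The reason for this gap was not tested. The sham and VO values did not overlap in 2 of the 10 genes, higher in VO for Cat and lower in VO for Gpx3. Over all tested genes, 8.25% did not overlap and were higher in VO and 12.9% did not overlap and were lower. With 10 genes these counts lie near the background. The median difference of the 10 genes was -0.05 on the log2 scale, against -0.01 for all tested genes. The split into higher and lower depended on the scaling. On the TPM scale the median of all tested genes was 0.13 and that of the 10 genes 0.09, with 7 higher and 3 lower. All tested genes with an unadjusted p under 0.05 then numbered 1085 higher and 486 lower, in place of 491 and 1020.

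**Figure D1:**
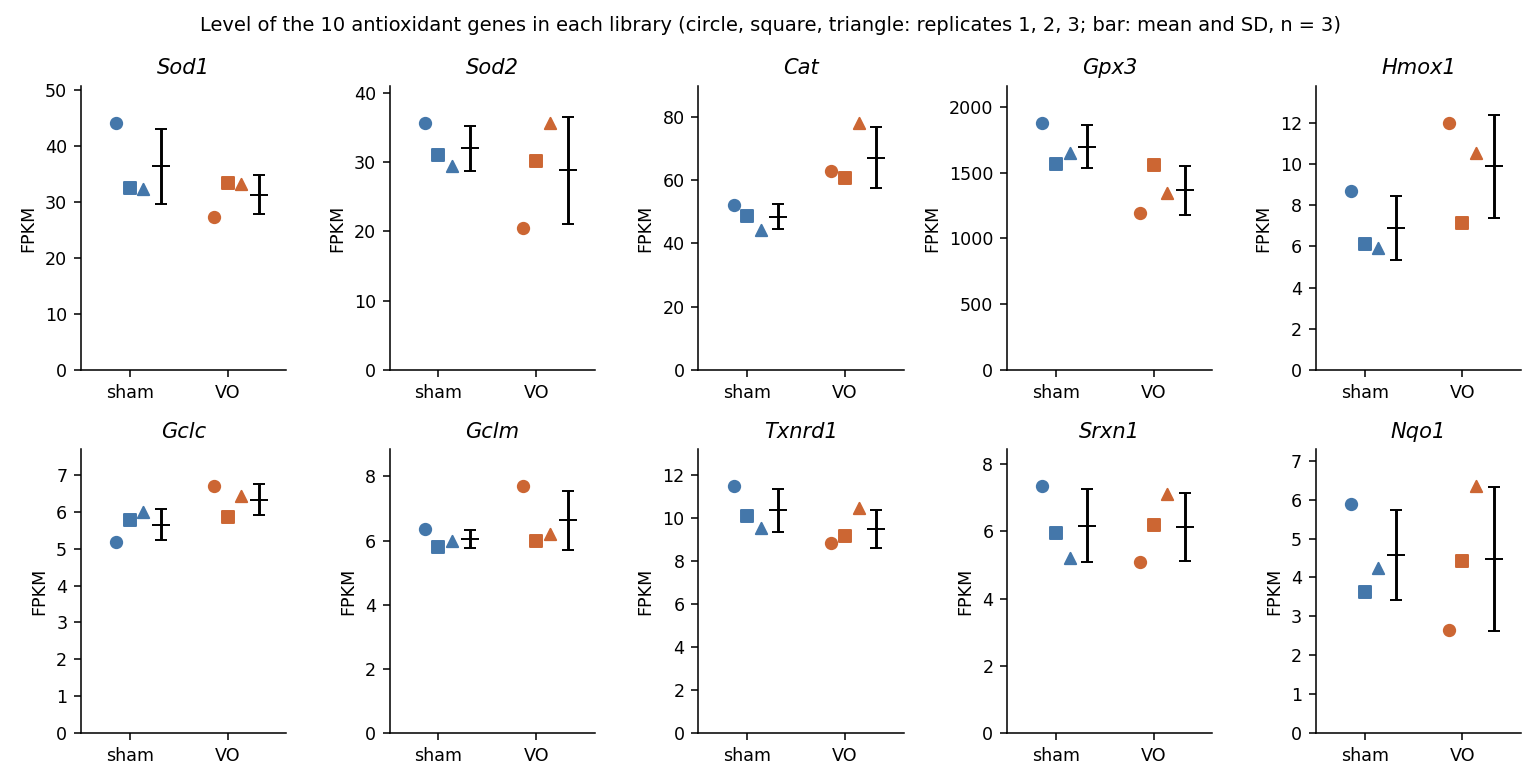
Level of each of the 10 genes (FPKM, linear axes from 0) in the 3 sham libraries (blue) and the 3 VO libraries (orange), with circles, squares and triangles for replicates 1, 2 and 3 and black bars for the mean and SD (n = 3). Cat is higher in every VO library than in every sham library, whereas in Nqo1, Srxn1 and Sod2 the libraries of both groups overlap widely.

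Cat, at chr2:103453849-103485160 of GRCm38 on the minus strand, was the member with the smallest p-value. It was read at 52.3, 48.8 and 44.3 FPKM in sham 1, 2 and 3 and at 62.7, 60.6 and 78.0 FPKM in VO 1, 2 and 3. The lowest VO library lay above the highest sham library, and VO 3 lay above all others. The mean was 48.5 ± 3.98 FPKM in sham and 67.1 ± 9.53 FPKM in VO (SD, n = 3 each), a fold of 1.38 on the log2 scale with a 95% interval of 1.11 to 1.72. The difference was 0.46 (SE 0.14, adjusted p = 0.404 by limma), with an unadjusted p under 0.05, and the exact permutation p was 0.1. At 1886 to 3354 fragments per library, counting error was at most 2.30% of a value. VO 3, the library with the highest Cat, was also the one with the adipocyte markers. Without VO 3 the difference was 0.35 and without VO 1 it was 0.51, both still with an unadjusted p under 0.05. VO 2 alone against the 3 sham libraries gave 0.32, which did not pass, with the lone library assumed to vary like sham. The part of the adipocyte RNA in the level of VO 3 was not tested.

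Of the 10 genes, the other enzymes of superoxide and peroxide removal, Gpx3, Sod1 and Sod2, were level or lower on average. Gpx3 was by far the most abundant of the 10, with a mean of 1532 FPKM, the 18th highest of all tested genes. The gene lies at chr11:54902453-54910377. It was read at 1879, 1563 and 1652 FPKM in sham 1, 2 and 3 and at 1193, 1562 and 1345 FPKM in VO 1, 2 and 3. The groups did not overlap, but VO 2 and sham 2 were nearly equal. The difference was -0.32 (SE 0.18, adjusted p = 0.465 by limma), and it was negative in all 19 alternative settings, from -0.42 to -0.12. Several of these settings change only the p-value and could not turn the sign. The lower end was VO 1, which also had the lowest cardiomyocyte markers, and without VO 1 the difference was -0.22. Whether the lower cardiomyocyte markers had a part in it was not tested.

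Sod1 was read at 44.1, 32.5 and 32.3 FPKM in sham 1, 2 and 3 and at 27.3, 33.4 and 33.1 FPKM in VO 1, 2 and 3. Apart from a high sham 1 and a low VO 1, the remaining libraries were close together, and the groups overlapped. The difference was -0.21 (SE 0.16, adjusted p = 0.563 by limma), and -0.06 without sham 1. Sod2 was read at 35.7, 31.0 and 29.4 FPKM in sham and at 20.5, 30.2 and 35.7 FPKM in VO, in the same order of replicates. VO 1 was the lowest and VO 3 as high as the highest sham library. The difference was -0.18 (SE 0.21, adjusted p = 0.683 by limma), and it turned to 0.04 without VO 1.

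Levels between genes depend on the length by which fragments are divided. The table's exon length was that of all annotated exons of a gene together, which for Sod1 is 3970 bases, whereas its principal transcript in GENCODE M21 has 641 bases. On the table's length the mean was 33.8 FPKM for Sod1, 30.4 for Sod2 and 57.8 for Cat. Per kilobase of the longest principal transcript the means became 209, 51.9 and 57.8 FPKM, so that Sod1 stood above Cat instead of below it. Gpx3 remained the highest of the 10, at 1743 FPKM. Differences between the groups do not depend on this length.

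Hmox1, at chr8:75093621-75100589, was the only member with a larger difference than Cat, but with more spread. It was read at 8.70, 6.10 and 5.93 FPKM in sham 1, 2 and 3 and at 12.0, 7.11 and 10.6 FPKM in VO 1, 2 and 3. VO 1 and VO 3 were above every sham library, and VO 2 lay below sham 1. The difference was 0.50, the largest of the 10 genes, with a fold of 1.41 and a 95% interval of 0.968 to 2.07 (SE 0.23, adjusted p = 0.423 by limma). Leaving out a library moved it from 0.35 without VO 1 to 0.68 without sham 1 and 0.72 without VO 2, and these last had an unadjusted p under 0.05. VO 2 alone against sham gave 0.06.

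The 6 libraries stood in the same order for Hmox1 and for the summed macrophage markers, from VO 1 (947 FPKM) over VO 3 (380), sham 1 (373), VO 2 (313) and sham 2 (300) to sham 3 (273). The single markers did not all keep this order. C1qa, C1qb and C1qc were higher in sham 1 than in VO 3, and the others lower, among them Lyz2, the most abundant, at 133 and 161 FPKM. Cd163, at 6.52 FPKM in VO 1, lay within the sham range of 6.07 to 7.54. Macrophages that take up red cells are a known source of haem oxygenase 1. Sham 1, the sham library with the highest Hmox1, also had the second highest red cell markers, at 6975 FPKM, after 8589 in VO 1. In VO 3, where Hmox1 was at 10.6 FPKM, the red cell markers were at 1035 FPKM, within the range of the libraries with low Hmox1. The part of these cells in the level of Hmox1 was not tested.

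**Figure D2:**
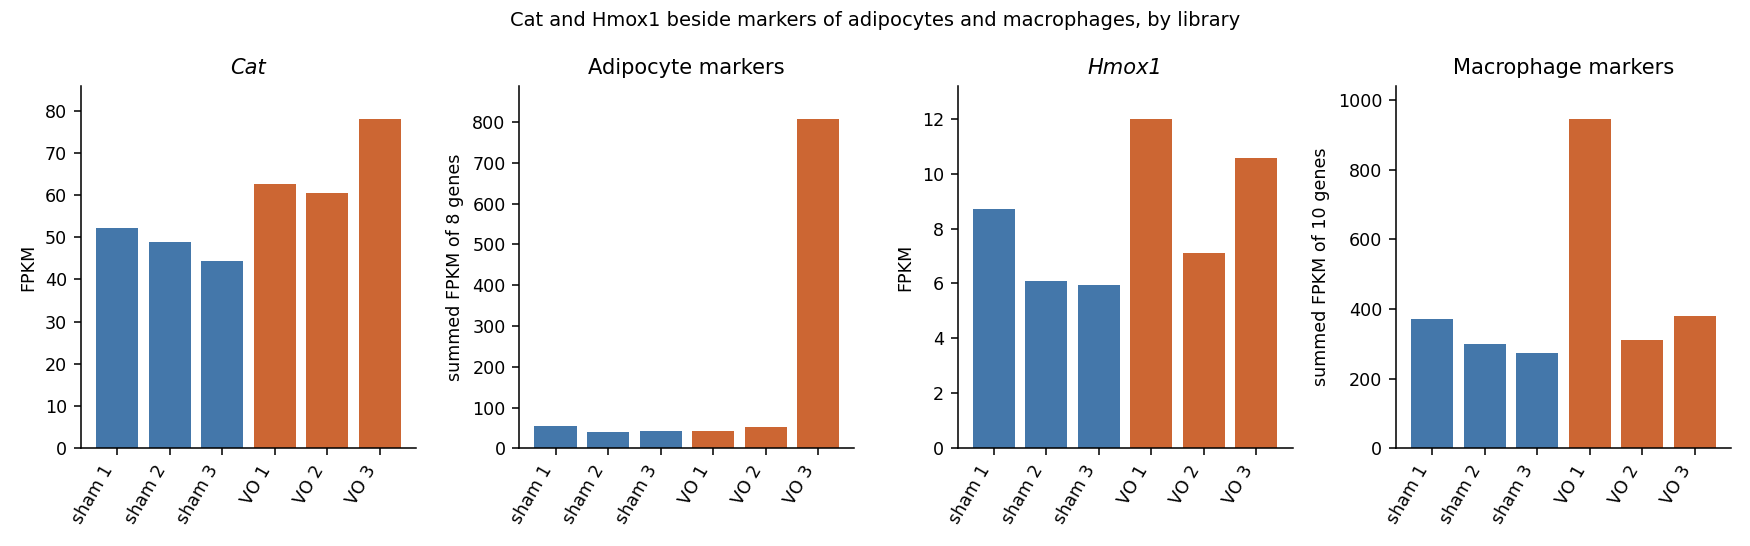
Level of Cat and of Hmox1 (FPKM) and summed FPKM of 8 adipocyte and 10 macrophage markers, as bars from 0 for each sham (blue) and VO (orange) library. Adipocyte markers are high in VO 3 alone, at 808 FPKM, where Cat is highest at 78.0 FPKM. Macrophage markers are highest in VO 1, at 947 FPKM, where Hmox1 is highest at 12.0 FPKM.

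Both subunits of glutamate-cysteine ligase were slightly higher on average in VO, within the spread. Gclc was read at 5.19, 5.78 and 5.98 FPKM in sham 1, 2 and 3 and at 6.69, 5.86 and 6.43 FPKM in VO 1, 2 and 3. VO 1 and VO 3 lay above all sham libraries and VO 2 lay between them, a difference of 0.16 (SE 0.11, adjusted p = 0.517 by limma). Gclm was read at 6.36, 5.81 and 5.99 FPKM in sham and at 7.69, 6.00 and 6.20 FPKM in VO. VO 1 was the highest and the other VO libraries lay within the sham range, a difference of 0.12 (SE 0.13, adjusted p = 0.654 by limma) that came to 0.01 without VO 1. Their 95% intervals, -0.10 to 0.42 for Gclc and -0.17 to 0.42 for Gclm, stayed below a doubling of either gene.

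Txnrd1 was read at 11.5, 10.1 and 9.54 FPKM in sham 1, 2 and 3 and at 8.84, 9.14 and 10.5 FPKM in VO 1, 2 and 3. VO 3 lay among the sham libraries and the others below them, a difference of -0.13 (SE 0.12, adjusted p = 0.622 by limma) that was 0.01 on the TPM scale. Srxn1 was read at 7.34, 5.95 and 5.20 FPKM in sham and at 5.10, 6.20 and 7.12 FPKM in VO. The ranges of the groups nearly coincided, and the difference was -0.004 (SE 0.17, adjusted p = 0.992 by limma), changing sign on the TPM scale to 0.13. Nqo1 was read at 5.88, 3.62 and 4.23 FPKM in sham and at 2.66, 4.42 and 6.34 FPKM in VO. The VO libraries held both the lowest and the highest value of all 6, which differed 2.38-fold. Nqo1 thus had the widest interval of the 10, with a difference of -0.09 (SE 0.32, 95% interval -0.84 to 0.67, adjusted p = 0.919 by limma) and a sign that turned on the TPM scale, to 0.05. It was also the least abundant member, at 75 to 162 fragments per library, where counting error reached 11.5% of a value.

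VO 1 was at an end of the range in most of the 10 genes. It was the lowest library in 6 of them (Nqo1, Txnrd1, Srxn1, Sod1, Sod2 and Gpx3) and the highest in 3 (Hmox1, Gclc and Gclm). Over all tested genes VO 1 was the lowest library in 32.6% and the highest in 25.4%. Sham 1 was the highest in 4 of the 10, and VO 2 was at neither end in any. Among all tested genes sham 1 was the highest in 29.0%, and VO 2 was the highest in 11.1% and the lowest in 9.96%.

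**Figure D3:**
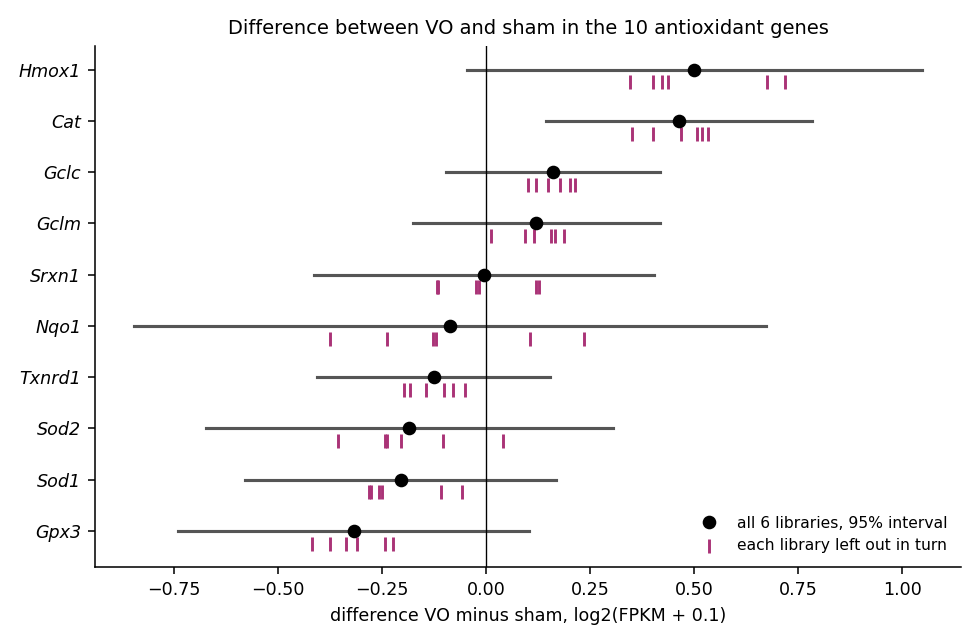
Difference between VO and sham in each of the 10 genes on log2(FPKM + 0.1), as points with limma's 95% intervals (grey lines) from all 6 libraries, and as purple ticks for fits that leave out a single library. The interval of Cat alone lies above 0. The ticks of Nqo1, Srxn1 and Sod2 fall on both sides of 0.

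The sensor and the transcription factors of the pathway were read in a list of 11 genes, of which 10 were tested. Nfe2l2, which codes for NRF2, was read at 29.8, 28.0 and 28.5 FPKM in sham 1, 2 and 3 and at 31.1, 27.7 and 27.9 FPKM in VO 1, 2 and 3, a difference of 0.01 (SE 0.10, adjusted p = 0.981 by limma). NRF2 is controlled mainly through protein stability, which RNA does not show. Keap1 was read at 9.25, 8.74 and 9.66 FPKM in sham and at 7.73, 8.47 and 8.55 FPKM in VO, lower without overlap but within error, at -0.16 (SE 0.10, adjusted p = 0.494 by limma).

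Maff, the smallest p-value among these genes, codes for a small MAF protein. It was read at 5.13, 4.27 and 5.14 FPKM in sham 1, 2 and 3 and at 2.10, 3.19 and 2.81 FPKM in VO 1, 2 and 3. All VO libraries lay below all sham libraries, a difference of -0.83 (SE 0.18, adjusted p = 0.325 by limma). It was -0.67 without VO 1 and -0.87 without VO 3, each with an unadjusted p under 0.05. The other small MAF genes were at -0.38 for Mafk (SE 0.16) and -0.04 for Mafg (SE 0.13). The KEAP1 ligase partners were at -0.04 for Cul3 (SE 0.10) and -0.26 for Rbx1 (SE 0.18). The autophagy receptor Sqstm1, which can sequester KEAP1, was at -0.17 (SE 0.11), the repressor Bach1 at 0.10 (SE 0.15) and the related factor Nfe2l1 at 0.01 (SE 0.13). Nfe2l3 was too low to be tested, with a mean FPKM under 1. In all, 1 of 10 was lower and 0 higher at an unadjusted p under 0.05, against 8.08% and 3.89% of all tested genes. The median of the list was -0.10, or 0.04 on the TPM scale.

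Of 30 further NRF2 targets, 22 were tested, with a list median of -0.07. At an unadjusted p under 0.05, 1 was higher and 1 lower, against 3.89% and 8.08% of all tested genes. On the TPM scale these were 4 higher and 1 lower with a median of 0.06, against 1085 higher and 486 lower of all 12627 genes. G6pdx, the first enzyme of the pentose phosphate pathway and a main source of NADPH, was read at 3.92, 4.05 and 3.77 FPKM in sham 1, 2 and 3 and at 5.85, 5.52 and 9.44 FPKM in VO 1, 2 and 3. All VO libraries were above all sham libraries, with VO 3 far above the rest, a difference of 0.77 (SE 0.20, adjusted p = 0.373 by limma). Without VO 3, the library with the adipocyte markers, it was 0.53, and without VO 1 it was 0.87, each with an unadjusted p under 0.05.

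Gstp1, a glutathione transferase whose reads may be shared with near-identical copies, was read at 122, 86.7 and 102 FPKM in sham 1, 2 and 3 and at 44.2, 71.6 and 64.0 FPKM in VO 1, 2 and 3. The groups did not overlap, at -0.80 (SE 0.21, adjusted p = 0.373 by limma). The next in the list were Gsr, glutathione reductase, at 0.26 (SE 0.13) and Ugdh, which makes UDP-glucuronic acid, at 0.27 (SE 0.13). On the lower side they were Gstm2, another glutathione transferase, at -0.42 (SE 0.18) and Ephx1, an epoxide hydrolase, at -0.38 (SE 0.18). Tkt, transketolase of the same pentose phosphate pathway, was at 21.6 FPKM in VO 3 and at 4.78 to 5.91 FPKM in the other 5 libraries.

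Among 12 other superoxide and peroxide enzymes, all tested, 10 were lower on average and 2 higher, with a median of -0.16, whereas on the TPM scale 7 were lower and 5 higher, with a median of -0.02. Of all 12627 tested genes 6503 were lower and 6124 higher, and on the TPM scale 4146 and 8481. Sod3, the superoxide dismutase of the extracellular space, was read at 21.1, 20.7 and 22.03 FPKM in sham 1, 2 and 3 and at 30.5, 23.1 and 27.6 FPKM in VO 1, 2 and 3. It was higher without overlap, at 0.34 (SE 0.13, adjusted p = 0.410 by limma), the only gene of the list with an unadjusted p under 0.05. At that threshold 3.89% of all tested genes were higher and 8.08% lower. Without VO 1 it was 0.25 and without VO 3 it was 0.32, neither with an unadjusted p under 0.05. Fibroblast markers, which include collagen genes, summed to 851, 895 and 870 FPKM in sham 1, 2 and 3. In VO 1, 2 and 3 they summed to 1278, 887 and 1112 FPKM, the order of the VO libraries in Sod3. The sham libraries did not share its order. Of these markers Col1a1, Col1a2 and Col3a1 were at 0.51 to 0.61, whereas the others, such as Pdgfra and Dcn, were at -0.03 to 0.11. Their part in the level of Sod3 was not tested. The other gene on the higher side was Gpx1 at 0.13 (SE 0.23), and the lower side was led by the peroxiredoxins Prdx4 at -0.32 (SE 0.15), Prdx2 at -0.30 (SE 0.15) and Prdx5 at -0.47 (SE 0.24).

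Of 21 glutathione and thioredoxin enzymes, 20 were tested, with a median of -0.19. At an unadjusted p under 0.05, 3 of them were lower and 0 higher, against 8.08% and 3.89% of all tested genes. On the TPM scale 3 were lower and 1 higher, with a median of -0.05. Msrb3, a methionine sulfoxide reductase, was at 56.8, 59.0 and 61.6 FPKM in sham 1, 2 and 3 and at 42.8, 45.3 and 45.6 FPKM in VO 1, 2 and 3. Its VO values lay close together and well below sham, at -0.41 (SE 0.10, adjusted p = 0.344 by limma), and it was -0.38 without VO 1 and -0.42 without VO 3. Sesn1, a sestrin, was at -0.39 (SE 0.12) and Mgst3, a microsomal glutathione transferase, at -0.69 (SE 0.28), and Mgst3 was at -0.47 without VO 1, no longer with an unadjusted p under 0.05. The higher side was led by Gsr, by Sesn3 at 0.31 (SE 0.16) and by Mgst1 at 0.46 (SE 0.40), which was at -0.04 without VO 3.

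Haem and iron genes, 9 tested of 10, had a median of 0.05, or 0.19 on the TPM scale. At an unadjusted p under 0.05, 1 gene was lower and 0 higher, against 8.08% and 3.89% of all tested genes. Tfrc, the transferrin receptor through which cells take up iron, was read at 24.7, 24.0 and 23.3 FPKM in sham 1, 2 and 3 and at 17.1, 17.7 and 19.8 FPKM in VO 1, 2 and 3. It was lower in every VO library, at -0.40 (SE 0.10, adjusted p = 0.356 by limma), with -0.36 without VO 1 and -0.46 without VO 3. Lower on average were also Blvrb, a biliverdin reductase, at -0.27 (SE 0.15) and the ferritin gene Fth1 at -0.11 (SE 0.15). On the higher side stood Hp, haptoglobin, at 2.36 (SE 1.34), the iron exporter gene Slc40a1 at 0.26 (SE 0.20) and Blvra at 0.14 (SE 0.15). Hp was at 20.9 FPKM in VO 3, the library with the adipocyte markers, and at 0.191 to 2.30 FPKM elsewhere.

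Selenoproteins, to which Gpx3 and Txnrd1 belong, were read in a list of 19 other genes, of which 17 were tested. Gpx1, Gpx4, Txnrd2 and Txnrd3 in this list were already counted in the lists above. None was called in either direction at an unadjusted or adjusted p under 0.05 by limma, and the median was -0.05, or 0.09 on the TPM scale. At the unadjusted threshold 3.89% of all tested genes were higher and 8.08% lower. The lower side was led by Selenos at -0.46 (SE 0.20), Msrb1 at -0.46 (SE 0.20) and Selenom at -0.51 (SE 0.22), the higher side by Sephs2 at 0.27 (SE 0.22), Selenon at 0.15 (SE 0.15) and Selenof at 0.09 (SE 0.11). Without VO 3, 2 genes were lower at an unadjusted p under 0.05, where 953 of all 12627 tested genes were.

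NADPH oxidases and Xdh, which make superoxide or peroxide, stood on the other side of the balance. Of 13 genes, 8 were tested, all 8 were higher on average in VO and none passed an unadjusted p of 0.05 by limma. Over all 12627 tested genes 6124 were higher on average and 6503 lower. Cybb, the catalytic subunit of the oxidase of phagocytes, was read at 6.71, 6.15 and 6.80 FPKM in sham 1, 2 and 3 and at 33.02, 6.85 and 7.98 FPKM in VO 1, 2 and 3, a difference of 0.89 (SE 0.55, adjusted p = 0.489 by limma). Rac2, a small GTPase of blood cells that activates this oxidase, was at 0.92 (SE 0.54). VO 1, with the macrophage and neutrophil markers, carried nearly all of it, since the median of the 8 genes was 0.40 with all libraries and 0.01 without VO 1.

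**Figure D4:**
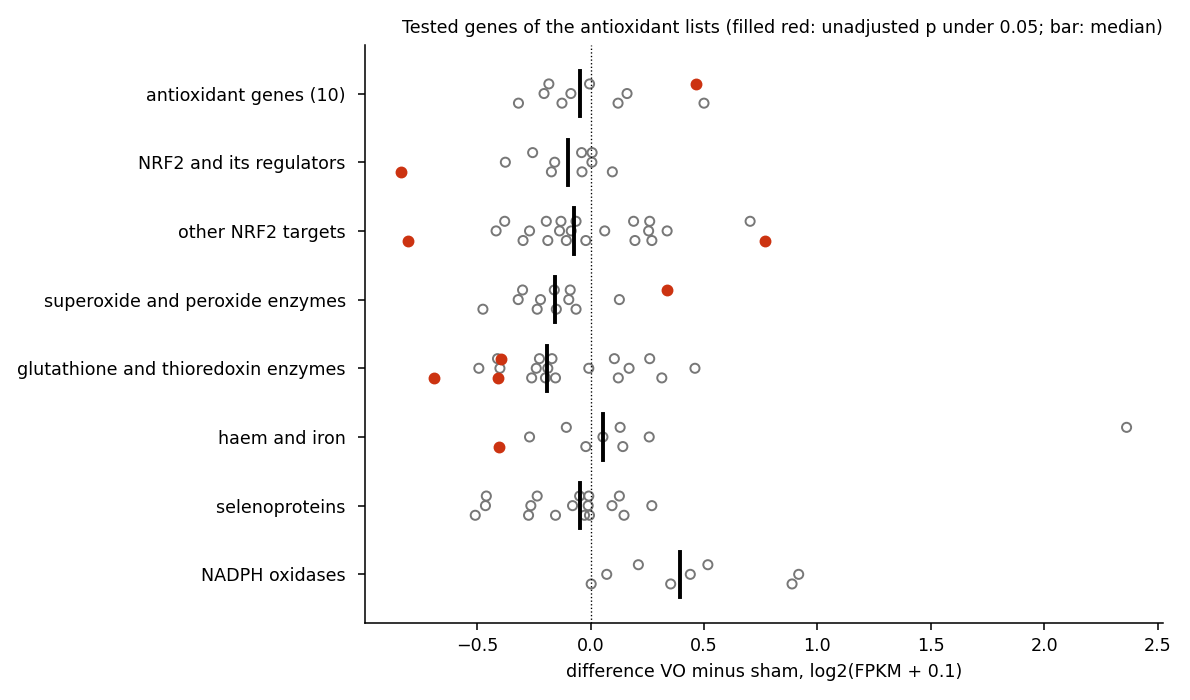
Difference between VO and sham on log2(FPKM + 0.1) for each tested gene (circles) of the 10 antioxidant genes and of 7 further lists, filled in red at an unadjusted p under 0.05 by limma, with a black bar at the median. The medians lie between -0.19 and 0.05 except for NADPH oxidases at 0.40, and on the TPM scale, where all genes shift up, 4 of the 6 negative medians turn positive. None of the genes shown passed an adjusted p of 0.05, and some stand in several lists.

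The genes whose pattern was nearest to that of the leading members were found by the root mean square difference of centred log2 values over the 6 libraries. For Cat they were Haus3, a subunit of the augmin complex of the mitotic spindle, at 0.051, Traf4, a signalling adaptor, at 0.080 and Ifngr1, a subunit of the interferon gamma receptor, at 0.086. For Hmox1 they were Skap2, an adaptor protein of immune cells, at 0.088, the pseudogene Gm2981 at 0.094 and the zinc finger gene Zfp873 at 0.098. In Haus3, Traf4 and Ifngr1, as in Cat, VO 3 was the highest library and VO 1 the next, which follows from how these genes were chosen.

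Ratios of members within a library do not depend on the scaling between libraries. Cat over Gpx3 was 0.0278, 0.0312 and 0.0268 in sham 1, 2 and 3 and 0.0526, 0.0388 and 0.0580 in VO 1, 2 and 3. The VO libraries were all above the sham libraries, with geometric means of 0.0491 and 0.0286, and the exact permutation p of 0.1 is the smallest that 3 against 3 can give. Since Cat was higher and Gpx3 lower without overlap, this ratio had to separate the groups, so its p is no further test. Gclc over Gclm, the 2 subunits of a single enzyme, had a geometric mean of 0.932 in sham and 0.959 in VO (exact permutation p = 0.7). Sod2 over Sod1 was 0.889 and 0.902 (exact permutation p = 1). Hmox1 over Nqo1 was 1.40 to 1.68 in sham. It was 1.61 in VO 2 and 1.66 in VO 3 but 4.51 in VO 1 (exact permutation p = 0.3), so only VO 1 departed from sham.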

How the data were processed

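RNA from right atria at P21 was sequenced in 3 sham and 3 VO libraries. Per the methods and the submitters' processing notes, the authors aligned reads with HISAT2 2.0.5 to GRCm38 (mm10), counted them per gene with featureCounts 1.5.0-p3 and deposited FPKM values. The authors tested counts with DESeq2 1.16.1. Since the deposited values are FPKM, limma was used here instead. FPKM times exon length gave whole fragments for 100% of values, within 0.01. An incomplete last line was left out.

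Libraries were put on a common scale with median-of-ratios factors, which came to 1 in every library. Genes whose FPKM averaged 1 or more across all 6 libraries, 12627 in number, were kept and taken to log2 after adding 0.1. In R 4.3.3, limma 3.58.1 (lmFit, then eBayes with trend) gave two-sided tests of VO minus sham with no covariate, and Benjamini-Hochberg adjustment ran over all of these genes. Thresholds were 0.05. The fit was tested on simulated data. Libraries were not paired by replicate number, since with group means removed same-numbered libraries correlated at -0.108, 0.0112 and -0.0292.

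The 10 genes and the other lists were chosen with earlier results of these data known. The lists shared genes, among them Prdx1, Txn1, Gsr, Blvrb, Fth1 and Ftl1, so their medians were not separate results. Named were all members, all regulators of NRF2, and the 3 genes with the smallest p in each direction of each further list. Tkt was named after its values were seen, and some genes that the rule picked are not reported here. Alternatives were pseudocounts of 1 and 0.01, filters of 0.1, 5 and none, TPM, unscaled FPKM, quantile normalization, voom, eBayes with robust variance and eBayes lacking the trend, the replicate block and each library left out. The fit without VO 1 and VO 3 and the level per principal transcript were chosen after seeing the data. Figures used matplotlib 3.10.9 in Python 3.11.15. Motifs were read in RefSeq windows.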

Additional observations from a re-analysis of the deposited data

How the results depend on the processing

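No alternative gave any of the 10 genes an adjusted p under 0.05 by limma. Unscaled FPKM repeated the main fit, since every scaling factor was 1. The filters, the eBayes variants and the replicate block changed p-values but left each difference itself the same, so they could not turn a sign. Cat was higher in VO under all 19 alternatives, from 0.32 to 0.63 on the log2 scale, with an unadjusted p under 0.05 in 18 of them, the exception being the fit without VO 1 and VO 3, chosen after seeing the data. The count of genes higher at an unadjusted p under 0.05 was 1, and 2 with TPM and with the replicate block. With each library left out in turn it was 1 to 2, with 2 without sham 1 and without VO 2, and 0 without both VO 1 and VO 3. The second gene was Hmox1 in each of these, at 0.64 with TPM, 0.50 with the replicate block, 0.68 without sham 1 and 0.72 without VO 2. The replicate block left Cat at 0.46 (adjusted p = 0.601 by limma). The TPM scale moved the median of all tested genes from -0.01 to 0.13, and that of the 10 genes from -0.05 to 0.09, so signs that turned there moved with all genes. The median of the 10 genes was -0.16 to 0.10 with a library left out, positive without sham 1 and without VO 1. With TPM the sign turned for Nqo1 (0.049), Srxn1 (0.13) and Txnrd1 (0.012). With a library left out it turned for Nqo1, whose range was -0.38 (without VO 3) to 0.24 (without VO 1) with 0.10 without sham 1, for Srxn1, -0.12 to 0.13 (positive without sham 1 and without VO 1), and for Sod2, -0.36 to 0.041 (without VO 1). Without VO 1 and VO 3 it turned for Gclm (-0.012) and Srxn1 (0.022). The cause was not tested. Nqo1 fell below the filter of 5 FPKM. Without VO 1 and VO 3 the VO group is 1 library, assumed to vary like sham. Leaving out VO 1 lowered the genes at an unadjusted p under 0.05 over the whole table from 491 higher and 1020 lower to 317 and 620. Counting error was largest in Nqo1, at up to 11.5%, but the SD between libraries was larger, at 25.5% of the mean in sham and 41.1% in VO. In the other 9 genes counting error stayed under 8%. In Gclc it reached 5.74%, close to the SD of 7.30% of the mean in sham and 6.66% in VO.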

Other observations

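Since Cat is an enzyme of the peroxisome, 25 other peroxisome genes were read, a list chosen after the value of Cat had been seen. Of these 23 were tested, 13 were higher and 10 lower on average in VO, and the median was 0.02 on the log2 scale. On the TPM scale 17 were higher and 6 lower, with a median of 0.15. All 12627 tested genes split into 6124 higher and 6503 lower, and into 8481 and 4146 on the TPM scale.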
